A study of Mus musculus with 50 samples.

Results

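The wild-type transcriptome of the mouse brain at E13.5 (embryonic day) was described from 6 RNA libraries, chosen by their genotype labels, out of 50 samples in the series. The RNA part of the series holds 18 libraries in 6 groups of 3, and the other 32 samples are chromatin immunoprecipitation and input libraries. All 6 embryos were wild type (wt), of strain FVB/ANTJ, with whole brain as the tissue. The 3 embryos labelled as wt for the gtf2i comparison are called gtf2i-cross wt embryos 1, 2 and 3 here, and the 3 labelled as wt for the ird1 comparison are called ird1-cross wt embryos 1, 2 and 3. Embryos of the same crosses labelled gtf2i or ird1 were read as carrying 1 mutant allele of Gtf2i or of Gtf2ird1 (3 each) and are used only where named. The labels give neither sex nor litter, nor whether a library came from a single brain, so the p-values measure the spread between these libraries.

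At this stage the mouse brain is building its neurons. Radial glia divide along the ventricles, pass through committed progenitors and give rise to young neurons that settle outside them, while transcription factors expressed in different places set up the telencephalon, diencephalon, midbrain and hindbrain. Vessels carrying red blood cells, meninges and the choroid plexus come along in a whole-brain dissection. Ribosomal RNA was removed before library construction, so histone mRNA without a poly(A) tail and small nuclear or cytoplasmic RNAs remain in such libraries and can be counted.

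The table held 11708 genes, with 3239117 counts in ird1-cross wt embryo 2, the shallowest of all 18 libraries, and 5151219 to 7231162 in the other 5 wt libraries. The smallest count of any gene was 10 to 21 per wt library. The median gene had 116 counts in ird1-cross wt embryo 2, a counting error of 9.28%, and 206 to 292 in the others. The deposited rows are genes above a minimum in every library, so a gene with no row was not analysed here. In bulk tissue, fewer cells of a type and less RNA per cell cannot be told apart.

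The label whole brain was checked against marker lists. Rows were found for 35 of 35 markers of neurons, 23 of 24 of radial glia, 18 of 18 of neurogenic progenitors, 20 of 20 of the dorsal telencephalon, 21 of 22 of the ventral telencephalon and 31 of 33 of the diencephalon and midbrain. Of 27 hindbrain markers 6 had a row, among them Zic1, Zic2, Zic4 and Meis1, and the Hox genes of that list were not analysed here. Markers of other tissues were in the table as well. Endothelium had 21 of 22 markers in the table, mesenchyme and meninges 24 of 29, choroid plexus and roof plate 14 of 20, and microglia 7 of 15, with medians of 10.2 to 19.3 TPM (counts per base of transcript, scaled to a common total per library) against 183 TPM for the neuron list, 25.3 TPM for the ventral telencephalon and 24.6 TPM for the diencephalon and midbrain. The 15 red blood cell genes in the table took 1.15% of the length-scaled total. Skeletal muscle and cartilage had 3 of 17, cranial ganglia and neural crest 3 of 12, and eye and pituitary 1 of 14.

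Abundance was compared between genes as TPM within the table, that is, counts divided by transcript length and scaled to a common total in each library. The 7SK small nuclear RNA Rn7sk, which holds the elongation factor P-TEFb inactive, stood first among genes of at least 200 bases, at 59782 ± 12425 TPM (SD, n = 6). The embryonic beta-globin Hbb-y was next at 8015 ± 2166 TPM. Actb, the cytoplasmic beta-actin, was at 5174 ± 1082 TPM. The paternally expressed imprinted gene Nnat was at 3785 ± 878 TPM, well above every other imprinted gene of the list, of which H19 came next at 306 ± 67.5 TPM. Tubulins that build the microtubules of dividing cells and young neurons were close behind, with Tubb5 at 3301 ± 722 TPM and Tubb3 at 1955 ± 420 TPM.

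The rest of the 20 held translation factors (Eef2 at 2057 TPM and Eef1a1 at 1539 TPM), linker and core histones (Hist1h1b at 2004 TPM, Hist1h4h at 1925 TPM, Hist1h1a at 1844 TPM), Ptms, Tmsb4x, the mitochondrial mRNAs mt-Nd1, mt-Co1 and mt-Cytb, the small RNAs Rprl3 and Scarna2, and the unnamed loci Gm26917 and Gm37194. These levels depend on the total. The 57-base locus Gm23935 took 12.9% of the length-scaled total in gtf2i-cross wt embryo 3 and 55.0% in ird1-cross wt embryo 2, with 32.3%, 41.7%, 33.5% and 34.5% in gtf2i-cross wt embryos 1 and 2 and ird1-cross wt embryos 1 and 3. With the 38 genes under 200 bases left out of the total, Actb came to 8710 TPM, and 19 of the 20 genes were still among the first 20. By counts with no division by length, 11 of the 20 were.

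**Figure D1:**
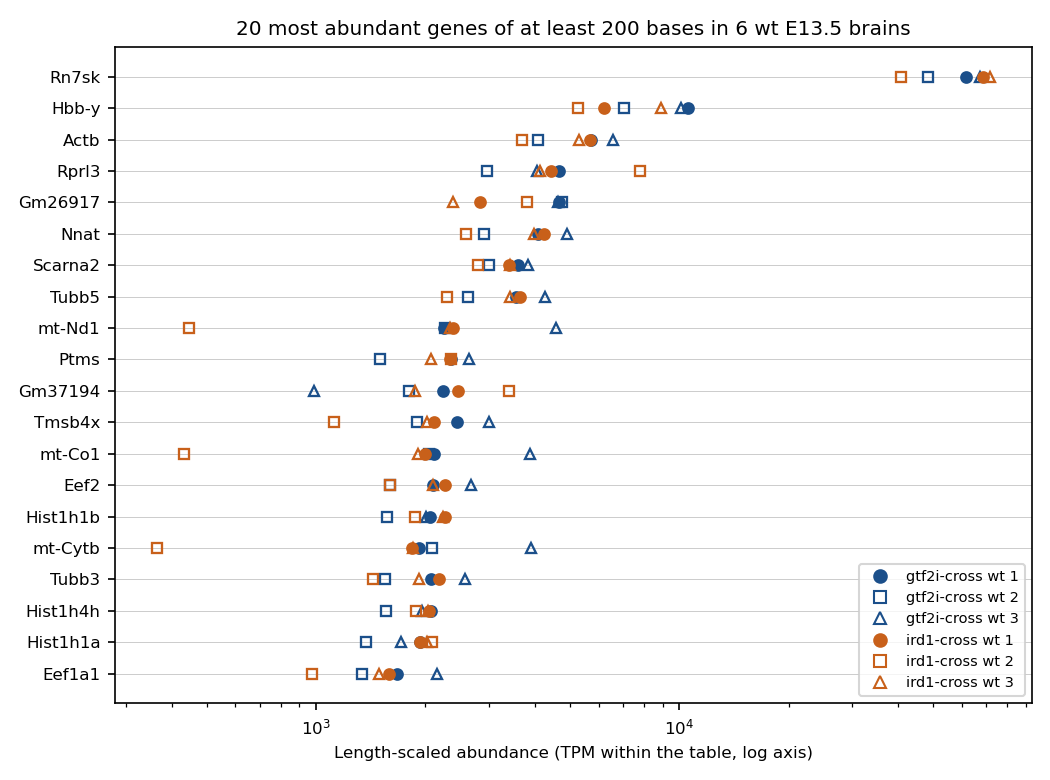
Length-scaled abundance (TPM within the table, log axis) of the 20 most abundant genes of at least 200 bases, 1 marker per wt embryo. Rn7sk stands apart from the rest, and the open orange squares of ird1-cross wt embryo 2 lie far to the left for the mitochondrial genes mt-Nd1, mt-Co1 and mt-Cytb.

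By group, 67 histone genes made up 3.01% of the length-scaled total, led by the genes just named and Hist1h4k at 1498 TPM. The 72 genes of cytosolic ribosomal proteins made up 1.32%, led by Rpl8 at 1399 TPM. The 85 nuclear genes of oxidative phosphorylation made up 1.07%, led by Atp5b, a catalytic subunit of ATP synthase, at 1053 TPM. With genes under 200 bases left out of the total, these shares came to 5.16%, 2.24% and 1.81%. Several of these families have processed copies across the genome, and how reads that match several places were counted is not given in the sources used here. Gapdh, a glycolytic enzyme with many such copies, was at 18.1 ± 3.36 TPM against 5174 TPM for Actb, and its value is therefore uncertain.

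Neuronal genes made up 1.01% of the total over 35 markers, or 1.69% without the genes under 200 bases. Besides Tubb3 they were led by the tubulin gene Tubb2b at 1147 TPM, and by Crmp1 and Dpysl3, which relay semaphorin signals to the growth cone, at 648 and 592 TPM. The radial glia list came to 0.244%, or 0.409% without those genes, with the intermediate filament gene Vim at 528 TPM, the fatty acid binding protein gene Fabp7 at 292 TPM and the stem cell transcription factor Sox2 at 150 TPM. Neurogenic progenitors were marked by the bHLH genes Hes6 at 186 TPM and Neurog2 at 150 TPM, and cycling cells by the D-type cyclin Ccnd2 at 339 TPM. Regional factors included the telencephalic LIM factor Lhx2 at 213 TPM, the diencephalic Tcf7l2, a Wnt effector, at 154 TPM, and the interneuron factors Dlx1 and Dlx2 at 81.5 and 81.3 TPM. Across the 6 embryos Lhx2 lay between 330 and 369 CPM (counts relative to the library total after TMM scaling, where TMM is the trimmed mean of M values), the scale used from here on to compare embryos. Tcf7l2 had a wider range, from 222 to 413 CPM.

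The 3 related genes Gtf2i, Gtf2ird1 and Gtf2ird2, which encode transcription factors of the TFII-I family, set the wt reference for the mutant groups. Gtf2i was at 593, 657 and 614 CPM in gtf2i-cross wt embryos 1 to 3 and at 591, 635 and 598 CPM in ird1-cross wt embryos 1 to 3. The ranges overlapped, with a log2 fold change (ird1 cross minus gtf2i cross) of -0.03 (SE 0.098). Gtf2ird1 was at 97.0, 83.9 and 95.0 CPM and at 89.7, 113 and 89.4 CPM in the same order, and Gtf2ird2 at 34.1, 31.9 and 32.9 CPM and at 32.8, 36.5 and 31.1 CPM. Per length, the order was Gtf2i at 235 ± 60.0 TPM, Gtf2ird1 at 43.5 ± 11.2 TPM and Gtf2ird2 at 16.2 ± 4.16 TPM, and the ranges of the 3 genes did not overlap on the CPM scale. The labels of the heterozygotes were set against these levels, with all 12 libraries scaled together. Gtf2i was at 378, 362 and 361 CPM in the libraries labelled gtf2i, below every wt library. Gtf2ird1 was at 147, 153 and 147 CPM in the libraries labelled ird1, above the 84.5 to 115 CPM of the wt libraries, and at 127, 143 and 137 CPM in those labelled gtf2i. Gtf2ird1 mRNA was not lower in the libraries labelled ird1, so their genotype rests on the label alone.

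Variation between embryos was measured within each cross, so that a difference between the crosses does not enter. The excess SD is the SD of log2 CPM within the crosses after subtraction of the counting variance. The median gene had an excess SD of 0.131, and 100 of 11708 genes exceeded 0.5. That count depends on the measure, with 198 for the SD over all 6 libraries, 18 for edgeR's dispersion and 263 after thinning to the shallowest library. It was 49 without ird1-cross wt embryo 2, and 173 and 172 without gtf2i-cross wt embryos 2 and 3. Short or repeated noncoding RNAs led the list, together with genes of the mitochondrial genome. Among the 25 leading genes with a mean of at least 10 CPM, Skor1 and Lars2 were the nuclear genes known to code for protein. The last gene inside that limit had an excess SD of 0.681 (Rprl3) and the first outside it 0.680 (mt-Ta).

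The most variable gene was n-R5-8s1, a copy of 5.8S ribosomal RNA. It was at 15.7, 109 and 5.15 CPM in gtf2i-cross wt embryos 1 to 3 and at 11.8, 81.8 and 39.4 CPM in ird1-cross wt embryos 1 to 3 (excess SD 1.85). Mir6236, an annotated microRNA locus, followed with 770, 1616 and 89.9 CPM and with 714, 1664 and 557 CPM (excess SD 1.64). Lars2, which encodes the mitochondrial leucyl-tRNA synthetase, was at 575, 1618 and 136 CPM and at 470, 1997 and 853 CPM (excess SD 1.47). In each of these genes gtf2i-cross wt embryo 2 and ird1-cross wt embryo 2 were highest and gtf2i-cross wt embryo 3 was lowest. The row with no symbol, ENSMUSG00000106106, had the same order, from 1003 CPM to 17743 CPM. The mature sequence of the microRNA, from RefSeq (GRCm38.p6, chr9:110281353-110281371, plus strand), is shown because its locus took more counts than most mRNAs. Capitals mark the seed, bases 2 to 8.
mmu-miR-6236: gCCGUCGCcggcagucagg
The counts do not tell the mature form from any other RNA read over the locus, since such a library is not selected for size. Together with Gm15564, Gm37194, Gm26917 and Gm23935, chosen with these after their values were seen, the 8 loci took 2.95%, 5.05% and 1.21% of all counts in gtf2i-cross wt embryos 1 to 3 and 2.65%, 6.57% and 2.83% in ird1-cross wt embryos 1 to 3. How far leftover ribosomal RNA adds to these rows was not tested.

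The list of 23 small noncoding RNAs had its lowest sum, 10944 CPM, in gtf2i-cross wt embryo 3. Its highest, 17259 CPM, was in ird1-cross wt embryo 2, with ird1-cross wt embryo 3 close to it at 17056 CPM, unlike in the loci above. Rny1, Rny3 and Rnu12 followed another order. Rny3, a Y RNA bound by the Ro60 protein, was at 348, 1653 and 1215 CPM in gtf2i-cross wt embryos 1 to 3 and at 313, 925 and 1243 CPM in ird1-cross wt embryos 1 to 3. Rny1, its relative, was at 245, 1013 and 760 CPM and at 202, 545 and 682 CPM. Embryo 1 of each cross was lowest in both genes, unlike in the 8 loci above. Rnu12, the U12 small nuclear RNA of the minor spliceosome, was at 23.5, 89.2 and 52.2 CPM and at 19.3, 204 and 108 CPM, again lowest in embryo 1 of each cross. The small nucleolar RNAs Snord17, Snord118 and Snord104 were in the leading 25 as well, with excess SDs of 0.990, 0.848 and 0.714. Rn7sk, by contrast, stayed between 9134 and 14490 CPM, with an excess SD of 0.133, close to the median gene. When the trend of each library on transcript length was removed, the excess SD of Rny3 went from 1.12 to 0.739, whereas that of Lars2 stayed at 1.48.

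**Figure D2:**
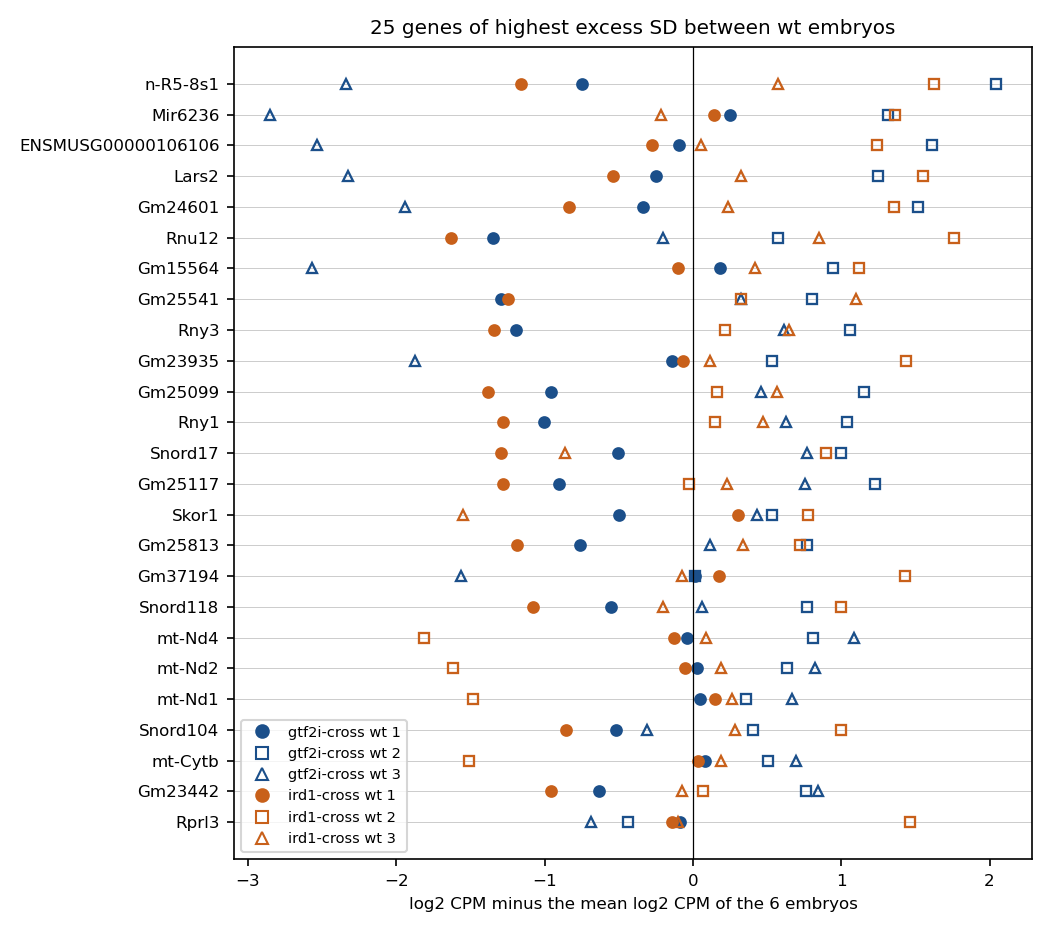
Deviation of log2 CPM from the mean of the 6 wt embryos for the 25 genes of highest excess SD, 1 marker per embryo. In the rows of n-R5-8s1, Mir6236 and Lars2 the blue triangle of gtf2i-cross wt embryo 3 is far left, in Rny1 and Rny3 the filled circles of embryo 1 of both crosses are left, and in the mt- rows the orange square of ird1-cross wt embryo 2 is left.

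The mitochondrial genome, which codes for core subunits of the respiratory chain, was low in 1 of the 6 wt embryos. Its 11 genes summed to 6212, 8009 and 9260 CPM in gtf2i-cross wt embryos 1 to 3 and to 6008, 2307 and 6690 CPM in ird1-cross wt embryos 1 to 3. mt-Nd4, a subunit of complex I, was at 285, 513 and 623 CPM and at 269, 83.5 and 311 CPM, and mt-Co1, the catalytic subunit of cytochrome c oxidase, at 1773, 2117 and 2463 CPM and at 1697, 634 and 1797 CPM. In 10 of the 11 genes, all but mt-Tp, ird1-cross wt embryo 2 was the lowest of the 6. The nuclear genes of oxidative phosphorylation did not share this: their sum in that embryo, 9645 CPM, was the highest of the 6, against 7083 to 8600 CPM in the others. The median excess SD of the mitochondrial genes was 0.660 against 0.131 for all genes. Without ird1-cross wt embryo 2 it was 0.268 against 0.0832. That library was also the shallowest, and the part that depth or RNA quality plays was not tested.

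Skor1 and several patterning genes were lowest in ird1-cross wt embryo 3. Skor1, a transcriptional corepressor of developing neurons, was at 8.43, 17.4 and 16.1 CPM in gtf2i-cross wt embryos 1 to 3 and at 14.8, 20.5 and 4.01 CPM in ird1-cross wt embryos 1 to 3. Cyp26b1, which degrades retinoic acid, was at 53.4, 81.5 and 93.5 CPM and at 74.2, 77.3 and 26.9 CPM. Robo3, the receptor that lets commissural axons cross the midline, was at 53.9, 93.6 and 53.8 CPM and at 46.6, 63.9 and 26.9 CPM. En2, a homeobox gene of the midbrain-hindbrain border, was at 84.5, 69.4 and 95.5 CPM and at 82.3, 86.4 and 49.9 CPM. In all of these ird1-cross wt embryo 3 was the lowest. The same holds for Tfap2a, Otp, Lmx1b, Irx3 and Irx5, which were picked, like Cyp26b1, Robo3 and En2, after their values were seen. By list, the median deviation of log2 CPM from the mean of the 6 was the lowest in this embryo for neurons at -0.084, for the diencephalon and midbrain at -0.098 (against -0.065 in ird1-cross wt embryo 2) and for Cajal-Retzius cells at -0.14, as it was for imprinted genes at -0.10, clustered protocadherins at -0.16 and the 3 genes of cranial ganglia and neural crest at -0.29. It was the highest for cell cycle genes at 0.12, red blood cells at 0.21 and histone genes at 0.23. The same holds for broadly used reference genes at 0.077 and the 1 gene of eye and pituitary at 0.48. For the 6 hindbrain markers, at 0.018, and the 20 dorsal telencephalon markers, at 0.069, it was neither. Otx2, of the forebrain and midbrain, was at 76.2 CPM in that embryo, inside the range of 55.1 to 95.5 CPM of the others. Without ird1-cross wt embryo 3 the excess SD of Skor1 went from 0.939 to 0.475. The part that the extent of dissection or the exact age plays was not tested.

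Red blood cell genes had yet another order of embryos. Hbb-y was at 3637, 2997 and 2623 CPM in gtf2i-cross wt embryos 1 to 3 and at 2169, 3159 and 3438 CPM in ird1-cross wt embryos 1 to 3. Hba-x, the embryonic alpha-globin, had a similar order, with 627, 526 and 390 CPM and with 338, 412 and 559 CPM. The adult beta-globins did not follow it. Hbb-bs was at 411, 266 and 492 CPM and at 275, 414 and 409 CPM, and Hbb-bt at 87.1, 54.1 and 128 CPM and at 61.5, 54.4 and 111 CPM. The ratio of their sum to Hbb-y was 0.237 in gtf2i-cross wt embryo 3, 0.107 in gtf2i-cross wt embryo 2 and between 0.137 and 0.155 in the others. The switch from embryonic to adult globins runs during these days of gestation, as background.

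Some X-linked genes separated ird1-cross wt embryos 2 and 3 from the other 4. Of 8 listed genes that escape X inactivation 7 had a row. Of these, 3 (Kdm5c, Eif2s3x and Pbdc1) had their highest values in these embryos and 4 (Kdm6a, Ddx3x, 5530601H04Rik and Utp14a) did not split this way. Kdm5c, a histone demethylase gene that escapes X inactivation and is therefore known to be higher in females, was at 283, 303 and 287 CPM in gtf2i-cross wt embryos 1 to 3, at 267 CPM in ird1-cross wt embryo 1, and at 400 and 372 CPM in ird1-cross wt embryos 2 and 3. Eif2s3x, another such gene, had its 2 highest values in the same embryos, at 16.0 and 14.7 CPM against 9.26 to 14.0 CPM. Msl3, Hccs, Prps2 and Mid1, picked after their values were seen, were lower in both embryos. Msl3 was at 45.6, 57.9 and 54.6 CPM in gtf2i-cross wt embryos 1 to 3 and at 53.9, 22.5 and 25.8 CPM in ird1-cross wt embryos 1 to 3, and Hccs, which attaches heme to cytochrome c, at 34.6, 35.5 and 38.9 CPM and at 29.7, 10.4 and 16.0 CPM. No row was found for Xist or for the 4 Y-linked genes of the list, which were not analysed here. The sex of the embryos is not in the labels, and the part it plays in any comparison of the wt groups was not tested.

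**Figure D3:**
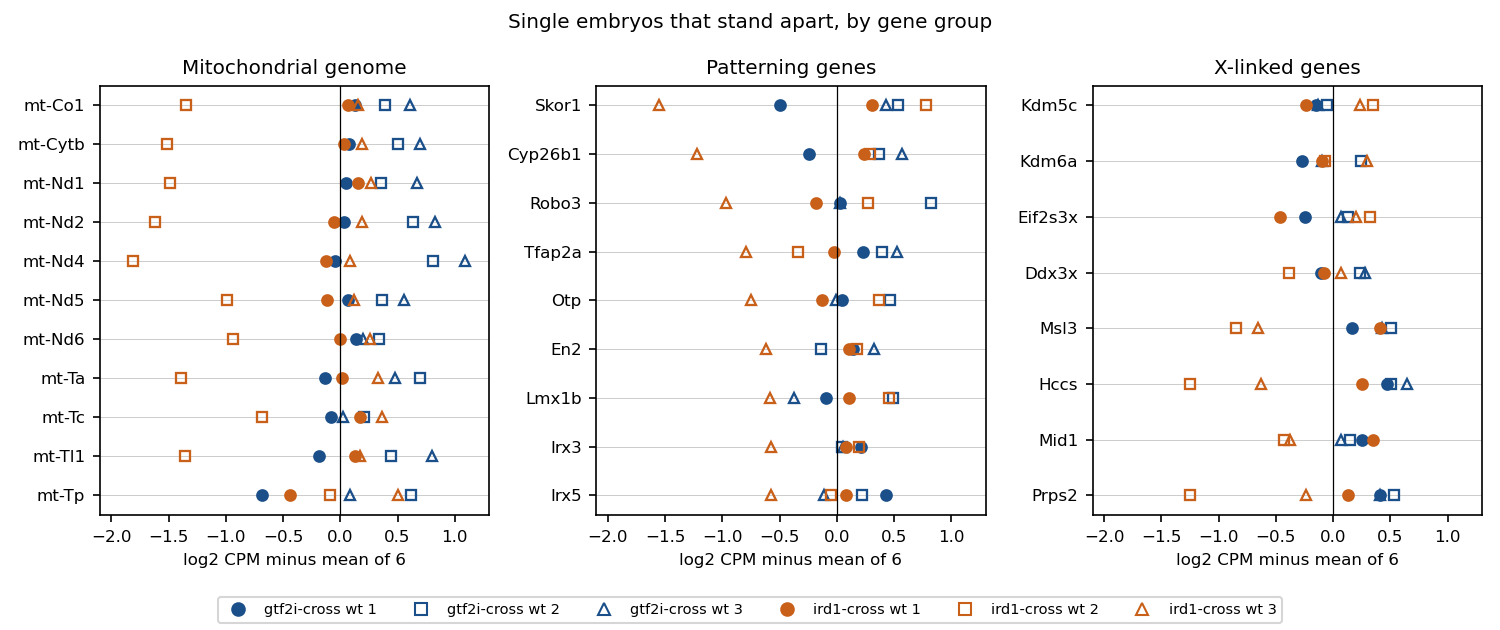
Deviation of log2 CPM from the mean of the 6 wt embryos for the 11 mitochondrial genes, 9 patterning genes and 8 X-linked genes, 1 marker per embryo; all of the patterning genes but Skor1, and Msl3, Hccs, Mid1 and Prps2, were picked after their values were seen. The orange square (ird1-cross wt embryo 2) is left in 10 of 11 mitochondrial rows, the orange triangle (ird1-cross wt embryo 3) is left in the patterning rows, and both are right for Kdm5c and left for Msl3, Hccs, Mid1 and Prps2.

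Pairs of embryos from the same cross were not always the closest. The closest pair was ird1-cross wt embryos 1 and 3, with a median absolute difference of 0.106 in log2 CPM over all genes, followed by gtf2i-cross wt embryo 1 and ird1-cross wt embryo 1, from different crosses, with 0.112. The first of these pairs is also the only pair of wt libraries that share a title number, whose meaning is not stated, and they were counted as 2 of the 3 replicates. The most distant were gtf2i-cross wt embryos 2 and 3 against ird1-cross wt embryo 2, with 0.410 and 0.409, where 879 and 924 genes differed by more than 2-fold. The 6 pairs within a cross ranged from 0.106 to 0.271 and the 9 pairs between crosses from 0.112 to 0.410. Counts differed beyond sampling noise in all 15 pairs, with a chi-square of 2.88 to 47.4 for each degree of freedom, so no pair was merged as the same library. This does not show that the libraries are independent samples. The median SD of log2 CPM was 0.136 among the gtf2i-cross and 0.185 among the ird1-cross wt embryos. That order rests on ird1-cross wt embryo 2, whose pairs within its cross were at 0.269 and 0.271, whereas the pair without it, at 0.106, was closer than the gtf2i-cross pairs at 0.120 to 0.176.

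The wt groups were then compared, which asks how far the controls of the 2 mutant comparisons can stand in for each other. No gene passed an adjusted p of 0.05 (0% of 11708 genes by edgeR's quasi-likelihood test, adjusted after Benjamini and Hochberg, with a smallest adjusted p of 0.175). Without adjustment 2814 genes, 24.0% of those tested, had a p under 0.05, of which 1107 (9.46%) were higher and 1707 (14.6%) lower in the ird1-cross wt embryos. That number was 1160 without gtf2i-cross wt embryo 2 and 1177 without gtf2i-cross wt embryo 3. The higher genes were 39.3% of it, but 52.5% with upper quartile scaling and 54.3% with the trend on transcript length removed, so the split depends on the scaling. DESeq2 called 87 genes, with a smallest adjusted p of 0.0482. For 3714 genes (31.7%) every library of 1 cross lay on the same side of every library of the other. The differences were small, and 6 genes exceeded a 2-fold difference in either direction, namely Gm37194 as the higher, and mt-Nd4, B3galt2, Samd12, Zfp182 and Gm26397 as the lower. With 3 libraries a group, a biological coefficient of variation of 11.8% and the X-linked and single-embryo patterns above, this comparison does not show that the wt groups are alike.

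Among the 10 genes of smallest p that were higher in the ird1 cross, none of them called by edgeR, Rpl10a had the smallest. This gene of the large ribosomal subunit was at 26.8, 19.4 and 21.3 CPM in gtf2i-cross wt embryos 1 to 3 and at 38.5, 37.5 and 33.8 CPM in ird1-cross wt embryos 1 to 3, a log2 fold change of 0.70 (SE 0.15, adjusted p 0.175). Arl4d, a small GTPase gene, was at 23.8, 20.4 and 18.97 CPM and at 30.5, 36.8 and 32.1 CPM. Mfap2, a component of extracellular microfibrils, was at 90.1, 71.5 and 75.4 CPM and at 109, 110 and 109 CPM. Shmt2, the mitochondrial serine hydroxymethyltransferase that feeds the folate cycle, was at 78.0, 75.6 and 65.6 CPM and at 94.5, 106 and 98.2 CPM. Mrm1, Ergic3, Gm47283, Atg101, Dgkz and Ccs complete the 10, with log2 fold changes of 0.40 (Ergic3) to 0.74 (Mrm1). In each of the 10 all libraries of the ird1 cross lay above all of the gtf2i cross, as they did for 14.8% of all genes. The 10 were chosen by smallest p in these same libraries, which favours such a separation. Neither it nor the calls of DESeq2 on the same counts are separate support. DESeq2 called Mfap2 (adjusted p 0.0482) and Dgkz (0.0488) of these 10.

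Among the 10 that were lower, none called by edgeR either, Hspa4l, a member of the Hsp110 family of heat shock proteins, had the smallest p. It was at 49.3, 63.4 and 59.4 CPM in gtf2i-cross wt embryos 1 to 3 and at 35.8, 36.8 and 35.7 CPM in ird1-cross wt embryos 1 to 3, a log2 fold change of -0.67 (SE 0.13, adjusted p 0.175). Rcan2, an inhibitor of calcineurin, was at 54.1, 54.5 and 62.3 CPM and at 39.3, 36.8 and 39.0 CPM. Rnd3, an atypical small GTPase that acts in the migration of cortical neurons, was at 242, 276 and 273 CPM and at 197, 152 and 195 CPM. Ebf1, a transcription factor of striatal and other young neurons, was at 78.2, 96.8 and 104 CPM and at 67.2, 47.9 and 58.1 CPM. Fam196b, Chml, Chic1, Rab11fip2, Hnrnpa3 and Slx4ip complete the 10, with log2 fold changes of -0.68 (Rab11fip2) to -0.96 (Chml). Again the libraries did not overlap in any of the 10, as for 16.9% of all genes in this direction, and again the choice by smallest p favours this. DESeq2 called Hspa4l, Rcan2, Rnd3 and Ebf1 of them, each with an adjusted p of 0.0482.

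Promoters were read from RefSeq for the gene of smallest p in each direction, to show the 2 ends of the comparison side by side, each from 250 bases before to 50 after an annotated start (GRCm38.p6, plus strand, chr17:28328221-28328520 for Rpl10a and chr3:40745363-40745662 for Hspa4l). Capitals mark GGGCGG, the GC box, and CCAAT, on either strand.
Rpl10a: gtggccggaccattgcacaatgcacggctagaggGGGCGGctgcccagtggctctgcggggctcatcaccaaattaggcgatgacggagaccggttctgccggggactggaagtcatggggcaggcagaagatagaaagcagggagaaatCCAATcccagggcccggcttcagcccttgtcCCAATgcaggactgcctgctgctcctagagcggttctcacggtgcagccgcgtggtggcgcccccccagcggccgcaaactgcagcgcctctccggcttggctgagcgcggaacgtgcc
Hspa4l: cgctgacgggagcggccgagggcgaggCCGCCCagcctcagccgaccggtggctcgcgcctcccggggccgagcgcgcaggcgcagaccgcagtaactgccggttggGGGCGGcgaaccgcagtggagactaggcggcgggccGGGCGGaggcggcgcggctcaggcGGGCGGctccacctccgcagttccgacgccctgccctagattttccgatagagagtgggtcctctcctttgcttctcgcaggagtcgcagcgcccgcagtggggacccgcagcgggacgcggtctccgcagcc
The Hspa4l window holds 4 matches to GGGCGG and none to CCAAT, and the Rpl10a window 1 and 2. Of all 32851 promoters of that length, 35.7% hold GGGCGG and 37.4% hold CCAAT. The TATA box as TATAAA, present in 13.6% of them, is in neither window. Of the 45 genes named for variability or for this comparison, 20 had a promoter in the table.

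By group, histone genes leaned to the ird1 cross. Of 67, 43 were higher and 0 lower at an unadjusted p under 0.05, against 9.46% and 14.6% of all genes, with a median log2 fold change of 0.35 against 0.00102 over all genes. Hist1h1c, a linker histone, was at 893, 797 and 665 CPM in gtf2i-cross wt embryos 1 to 3 and at 917, 1878 and 1013 CPM in ird1-cross wt embryos 1 to 3, with the highest value again in ird1-cross wt embryo 2. Of 72 genes of cytosolic ribosomal proteins 22 were higher and 0 lower, with a median of 0.21, and of 85 nuclear genes of oxidative phosphorylation 28 were higher and 1 lower, with a median of 0.20. None of these genes was called. The 3 lists hold short transcripts, with median lengths of 621, 1115 and 1200 bases, and among all genes of up to 2124 bases 19.7% were higher and 2.35% lower, with a median of 0.18. With the length trend of each library removed, 18 histone genes were higher and 0 lower (median 0.16), 6 and 2 of the ribosomal protein genes (median 0.068) and 8 and 3 of the oxidative phosphorylation genes (median 0.057), against 11.1% and 9.36% of all genes. The sums of all 3 lists were highest in ird1-cross wt embryo 2 and lowest in gtf2i-cross wt embryo 3.

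The mitochondrial genome had the most negative median of these lists, -0.54, with 0 higher and 3 lower of 11. The median was -0.27 without ird1-cross wt embryo 2, with 5 lower, and -0.72 with the length trend removed, with 6 lower. It was -0.43 with 0 lower without gtf2i-cross wt embryo 3, and -0.82 with 8 lower without ird1-cross wt embryo 3. In none of the 11 did the libraries of the crosses lie apart, against 31.7% of all genes in either direction. Lists of neuronal and regional genes were mixed, read against 9.46% higher and 14.6% lower of all genes. Of 35 neuron markers 2 were higher and 11 lower at an unadjusted p under 0.05 (median log2 fold change -0.059), of 31 of the diencephalon and midbrain 1 and 8 (median -0.18), and of 17 long nuclear RNAs 0 and 6 (median -0.11). The ventral telencephalon had 0 and 7 of 21 with a median of 0.0042, and the hindbrain 0 and 1 of 6 with a median of -0.14. The dorsal telencephalon had 2 and 0 of 20 (median -0.051), neurogenic progenitors 3 and 3 of 18 (median 0.11), and radial glia 4 and 1 of 23 (median 0.039). With the length trend removed, the neuron list had 2 and 8 (median -0.029), the ventral telencephalon 0 and 4, the long nuclear RNAs 0 and 3 (median -0.030), the hindbrain a median of -0.046 and the dorsal telencephalon 4 and 0 (median 0.023). The diencephalon and midbrain list had 1 and 9, with a median of -0.17. Dcx, which stabilises microtubules in migrating neurons, was at 608, 863 and 932 CPM in gtf2i-cross wt embryos 1 to 3 and at 594, 352 and 576 CPM in ird1-cross wt embryos 1 to 3. Map1b, a microtubule-associated protein of growing axons, was at 2510, 3290 and 3562 CPM and at 2367, 1882 and 2212 CPM. Malat1, an abundant nuclear long noncoding RNA, was at 3870, 5858 and 5351 CPM and at 3723, 2622 and 3549 CPM. In these 3 genes all ird1-cross embryos lay below all gtf2i-cross embryos, as in 16.9% of all genes, but embryo 1 of each cross had nearly the same value. Tubb3, also a neuron marker, had the other direction, at 2110, 1938 and 1967 CPM and at 2254, 2545 and 2190 CPM.

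Transcript length moved with these differences. Genes were ordered by length and divided into 5 bins of nearly equal number. In the bin of the shortest transcripts (57 to 2124 bases) the median log2 fold change was 0.18, in the following bins 0.086, -0.0073 and -0.081, and in the longest (from 5635 bases) -0.22. In the shortest bin 19.7% of genes were higher and 2.35% lower at an unadjusted p under 0.05, and in the longest 2.09% and 35.0%. The trend was carried by 3 embryos. Relative to the mean of all 6, the longest bin had a median of 0.15 and 0.19 in gtf2i-cross wt embryos 2 and 3 and of -0.26 in ird1-cross wt embryo 2, but of -0.0046, -0.022 and -0.061 in gtf2i-cross wt embryo 1 and ird1-cross wt embryos 1 and 3. With the length trend of each library removed, 2397 genes had an unadjusted p under 0.05 and 0 were called. The part that fragmentation of the RNA or library preparation plays was not tested.

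**Figure D4:**
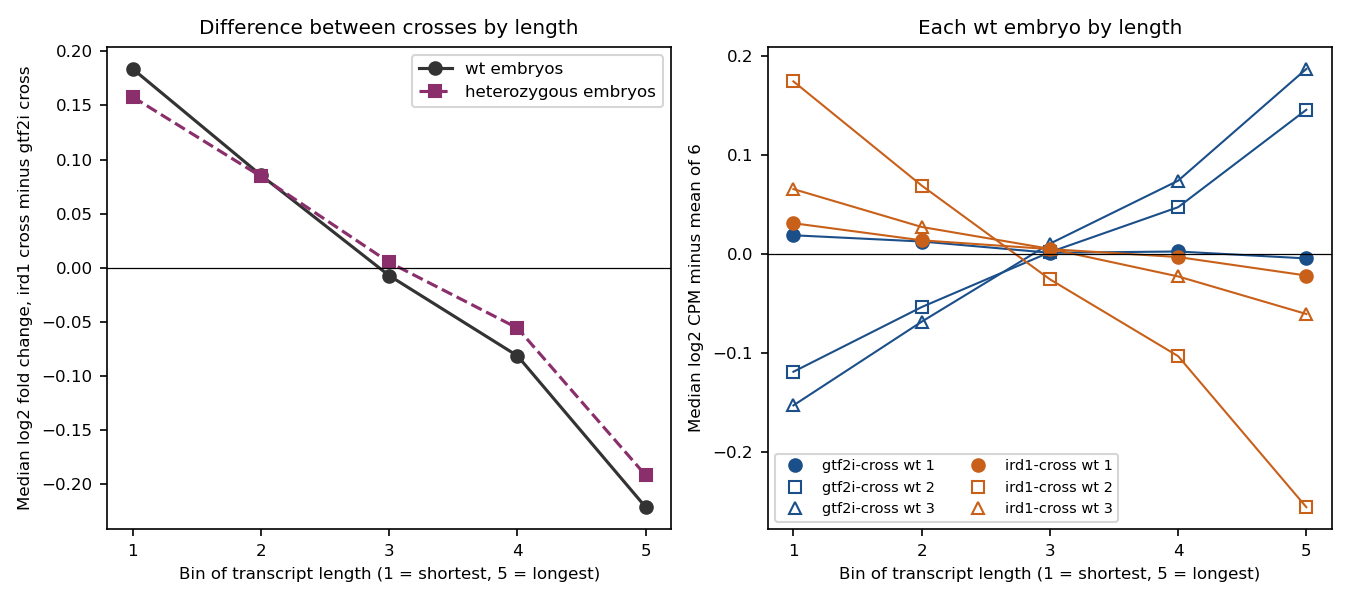
Left, median log2 fold change (ird1 cross minus gtf2i cross) by bin of transcript length (1 the shortest, 5 the longest), for wt and heterozygous embryos. Right, median deviation of log2 CPM from the mean of 6 by the same bins, 1 line per wt embryo. Both lines on the left fall from short to long transcripts, and on the right 3 embryos have steep lines, ird1-cross wt embryo 2 downward and gtf2i-cross wt embryos 2 and 3 upward.

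Heterozygous embryos of the same crosses were compared as well, in libraries that the wt comparison does not use. These groups differ in the cross and also in which gene is mutated, Gtf2i or Gtf2ird1, and the effects of these cannot be told apart. Between 3 ird1 and 3 gtf2i embryos 403 genes were called (3.44% of 11708, edgeR's quasi-likelihood test with the same adjustment), 71 higher and 332 lower in ird1. It was 1 in a fit over all 18 libraries, 161 with the length trend removed, and 2 to 619 when single libraries were left out, lowest without gtf2i embryo 2 or ird1 embryo 3. Of the 2814 genes with an unadjusted p under 0.05 between the wt groups, 2663 (94.6%) had the same sign in the heterozygotes, against 75.0% of the other genes, with Gtf2i and Gtf2ird1 left out. Unadjusted, 3284 genes (28.0%) had a p under 0.05 between the heterozygotes, 41.8% of them higher in ird1, a share of 55.6% with upper quartile scaling and 53.1% with the length trend removed. In both comparisons 1532 genes did so with the same sign and 4 with opposite signs. Across genes, which are not independent replicates, the log2 fold changes had a Pearson r of 0.688, and of 0.608 with the length trend removed. Every heterozygous library carries a title number that a wt library of the same cross also carries. What these numbers stand for is not stated, so the cross, the mutated gene in the heterozygotes and whatever else the numbers mark cannot be told apart.

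Of the named genes other than Gtf2i, 4 were called between the heterozygotes by edgeR's quasi-likelihood test, all lower in ird1. Of all genes 3.44% were called there, and 332 of those 403 were lower in ird1 too. Snord17 had a log2 fold change of -1.76 (adjusted p 0.000195), mt-Nd4 of -0.76 (0.0263), mt-Nd2 of -0.50 (0.0408) and Hspa4l of -0.48 (0.0465). The 11 mitochondrial genes summed to 8539, 6525 and 6336 CPM in gtf2i embryos 1 to 3 and to 6037, 5557 and 6120 CPM in ird1 embryos 1 to 3, so no heterozygous library was as low as ird1-cross wt embryo 2. Among genes named from lists, Dcx had a log2 fold change of -0.48 (adjusted p 0.0408) and Malat1 of -0.58 (adjusted p 0.0324). None of these 6 was called in the fit over all 18 libraries (adjusted p 0.112 to 0.294). Snord17 was called with each library left out in turn, and the other 5 were not without gtf2i embryo 1, gtf2i embryo 2 or ird1 embryo 3. Some calls were also lost with another library left out. For these 6 genes, Gtf2i and Gtf2ird1 together, a call was lost in 22 leave-out fits and the status stayed the same in 26. With the length trend removed, Hspa4l, Dcx and Malat1 were not called (adjusted p 0.231, 0.129 and 0.0583). Rpl10a, at 0.18 (adjusted p 0.361), was not called there. By length, the heterozygotes had medians of 0.16 in the shortest and -0.19 in the longest bin. Kdm5c went the other way, with a log2 fold change of 0.25 between the wt groups and -0.21 between the heterozygotes. Its values were 406, 397 and 379 CPM in gtf2i embryos 1 to 3 and 372, 280 and 371 CPM in ird1 embryos 1 to 3. Neither difference of Kdm5c was called by edgeR's quasi-likelihood test, with an unadjusted p of 0.099 between the wt groups and 0.053 between the heterozygotes. The part that the sex of the embryos plays was not tested.

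Whether the difference between crosses itself differed between wt and heterozygous embryos was tested as an interaction over 12 libraries. It was called for 2 genes (0.0171% of 11708), Gtf2i and Apobec3, and 309 (2.64%) had an unadjusted p under 0.05. With 1 library left out, no gene was called in 10 of the 12 cases. Both genes were called without gtf2i-cross wt embryo 1, and Gtf2i without ird1-cross wt embryo 2. Gtf2i is the gene that the gtf2i allele mutates. Apobec3, a cytidine deaminase gene that restricts retroviruses, was at 5.95, 3.58 and 3.79 CPM in gtf2i-cross wt embryos 1 to 3 and at 7.76, 8.15 and 7.83 CPM in ird1-cross wt embryos 1 to 3. In the heterozygotes it was at 10.8 ± 1.03 CPM in gtf2i and at 5.26 ± 0.537 CPM in ird1 (SD, n = 3 each). Its values in gtf2i-cross wt embryos 2 and 3 were near the floor of the table, where the smallest counts of any gene were 16 and 21.

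**Figure D5:**
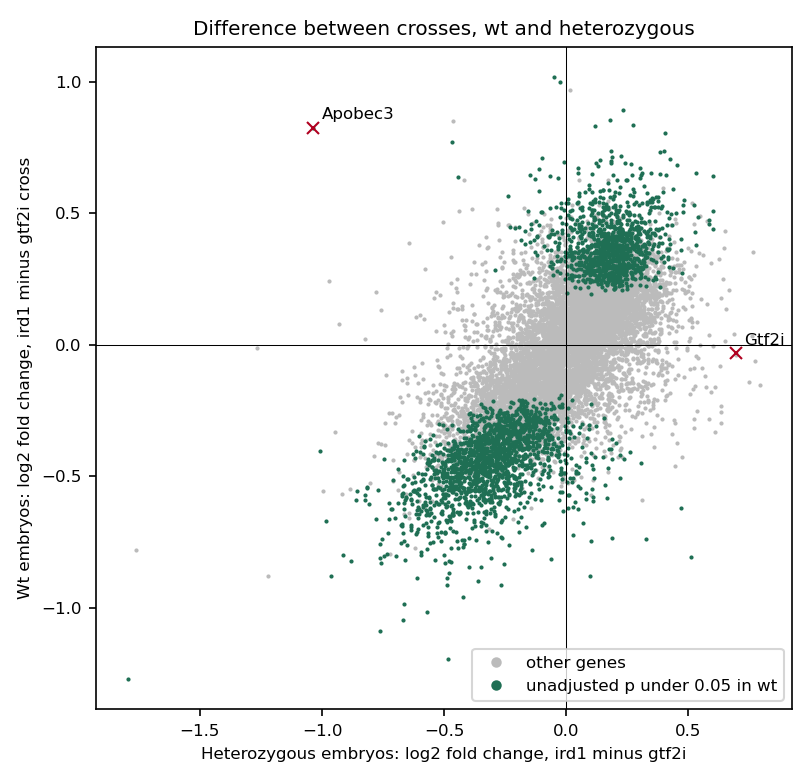
Log2 fold change between the crosses in wt embryos (vertical axis) against heterozygous embryos (horizontal axis), 1 point per gene, with genes of unadjusted p under 0.05 in wt in green. The cloud runs from lower left to upper right (r of 0.688 across genes), and Gtf2i and Apobec3, marked with crosses, lie off it.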

How the data were processed

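The RNA libraries number 18, all labelled whole brain, and the 6 wt libraries are described. Per the labels' protocols, brains were homogenized in RIPA buffer and RNA was cleaned over a column before ribosomal RNA was removed and libraries were built with a NEBNext kit. The submitters' processing notes name Trimmomatic, STAR, HTSeq and the build mm10. The strand setting is not given in the sources used here. The deposited values are whole-number read counts per gene with 1 transcript length per gene, and which transcript the length belongs to is not stated. Of 11708 genes 8 had no symbol and no length. No column of per-sample values was left unmapped.

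R 4.3.3 with edgeR 4.0.16 was used, with DESeq2 1.42.0 as an alternative. The filter filterByExpr removed 0 genes. Each comparison was fitted over all genes on its own libraries (6 wt, 6 heterozygous, or 12 for the interaction), and genes with an adjusted p under 0.05 are called. Excess SDs used log2 CPM with a prior count of 0.5. The scripts were tested on simulated data. Intervals of counting error cover counting only. Named were the 20 most abundant genes of at least 200 bases and the 5 most abundant shorter ones (Gm23935, Rny3, Mir6236, Rny1 and Gm24265), the 25 of highest excess SD with at least 10 CPM, and, since fewer than 5 genes were called between the wt groups, the 10 of smallest p in each direction. Genes named from lists were mostly among their more abundant or more variable members, and some were chosen after their values were seen. The genes, lists and alternatives were chosen with earlier results of these data known. Lists whose values are not given in the report are those of oligodendrocytes and astrocytes, pericytes, immediate early genes, glycolysis, p53 targets and heterochronic genes, and 0 of their genes were called between the wt groups.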

Additional observations from a re-analysis of the deposited data

Results flagged for a closer look

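For 2 genes the difference between the crosses was not the same in wt and heterozygous embryos (edgeR's quasi-likelihood test of the interaction, both with an adjusted p of 0.0313). Gtf2i had an interaction of -0.723 on the log2 scale (SE 0.11). The wt groups had 615 CPM on average over the 6 libraries with overlapping ranges, and the gtf2i heterozygotes had 370 ± 8.11 CPM, so the value holds the mutated allele itself. Apobec3 had an interaction of 1.862 (SE 0.28), and its values in gtf2i-cross wt embryos 2 and 3 were near the smallest counts of the table. It was higher in the ird1-cross than in the gtf2i-cross wt embryos, by 0.83 on the log2 scale, and lower in the ird1 than in the gtf2i heterozygotes, where the log2 fold change was -1.04. With 1 library left out, the number of genes called was 0 to 2 of 11708, and it was 0 in 10 of the 12 cases, so neither call held in most of these leave-outs.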

How the results depend on the processing

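The absence of calls between the wt groups held with all 18 libraries, upper quartile scaling, no filter, a mean count of at least 50, the length trend removed, thinned counts and each library left out, but not with DESeq2, which called 87 genes. Genes at an unadjusted p under 0.05 numbered 1160 (without gtf2i-cross wt embryo 2) to 3348 (without gtf2i-cross wt embryo 1), and 1177 without gtf2i-cross wt embryo 3. The log2 fold change of Gtf2i, main value -0.03, turned to 0.0085 with upper quartile scaling, to 0.054 with the length trend removed, and ranged from -0.064 to 0.020 with a library left out. Without 1 library that of Gtf2ird1 ranged from -0.037 to 0.13 and that of Gtf2ird2 from -0.038 to 0.064, both lowest without ird1-cross wt embryo 2. None of these genes was called in any setting. Between heterozygotes DESeq2 called 754, upper quartile scaling 608, a mean count of at least 50 left 215, the length trend removed 161, all 18 libraries 1, and leaving out a library 2 to 619. For the interaction, leaving out a library gave 0 to 2 called and 233 to 480 genes at an unadjusted p under 0.05. By counts without length 11 of the 20 most abundant genes stayed among the first 20. Genes over an excess SD of 0.5 numbered 198 as the SD over all 6, 18 by edgeR's dispersion, 263 after thinning, and 49 (without ird1-cross wt embryo 2) to 173 (without gtf2i-cross wt embryo 2) with a library left out. Removing the length trend from the excess SD (84 genes) and leaving Gm26917, Gm37194 and Gm15564 out of the total were chosen after seeing the data. The causes were not tested. No paired analysis was possible between the wt groups because they share no title number. Wt and heterozygous libraries of a cross do share title numbers, and with these as a replicate block, chosen after seeing the data, the interaction was called for 0 genes, with 363 at an unadjusted p under 0.05 (Gtf2i -0.723 and Apobec3 1.858, both with an adjusted p of 0.157). Deviations of same-numbered wt and heterozygous libraries correlated at -0.296 to 0.351 across genes, over 0.1 in 4 of 8 same-numbered and 2 of 10 other pairs, so the numbers were not taken to pair the libraries. The depth of ird1-cross wt embryo 2 limits genes near the minimum count, where counting error reached 31.6%.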
